A study of Setaria viridis with 15 samples.

Results

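Cytochrome P450 genes of green foxtail (Setaria viridis, a C4 grass) were followed in shoots that had grown beside bacteria without touching them. The genes were those whose name in the authors' deposited annotation contains the words cytochrome P450, whatever their values. This rule found 143 of the 23214 genes with a name there: 140 P450 enzymes of 29 numbered families and 3 NADPH--cytochrome P450 reductases, the proteins that pass electrons to P450 enzymes. All 143 were in the count table of 28032 genes. Wild-type (WT) seedlings, 2 to a plate, shared sealed plates for 7 days under a 12 h photoperiod with a small inner dish of LB medium, so that only volatile compounds could pass between dish and plant. The dish carried 20 µL of a suspension of the isolate AI2.2-A (4 libraries), CTB P6B8 (3 libraries) or MTS P5D6 (4 libraries). In the mock Control (4 libraries) the LB dish was left without bacteria, so the WT genotype, the LB dish and the sealed plate were common to all groups. The labels call the libraries biological replicates and do not say how many plates or seedlings each one pooled, and p-values measure the spread between these libraries. The design asks how the shoot transcriptome differs between every pair of these 4 conditions.

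P450 enzymes are heme proteins, mostly anchored in the endoplasmic reticulum, that insert an oxygen atom from molecular oxygen into small organic molecules with electrons from NADPH. Plants carry many families of them, numbered by sequence similarity, and the family number often points to the pathway. Some families make or break down hormones (brassinosteroids, gibberellins, jasmonates, strigolactones), some build lignin, flavonoids, sterols, carotenoids or the fatty acids of cutin and suberin, and large families of the CYP71 clan make lineage-specific defence compounds. In grasses these include diterpenoid phytoalexins, whose genes in rice lie in clusters that hold CYP99A and CYP76M genes. Names below are those of the deposited annotation, which were given by similarity, so that several genes carry the same name and are told apart by their identifier.

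P450 genes were more often higher than lower beside each isolate. Of the 140 P450 genes, 114 had enough counts to be tested among 20310 tested genes, and a gene was called at an adjusted p under 0.05 (edgeR quasi-likelihood test, Benjamini-Hochberg adjustment over all tested genes). Beside AI2.2-A, 45 P450 genes were higher (39.5%) and 18 lower (15.8%) than in control shoots, where 23.4% of all tested genes were higher and 24.3% lower. Beside CTB P6B8, 52 were higher (45.6%) and 11 lower (9.65%), against a background of 22.6% higher and 22.7% lower. Beside MTS P5D6, 45 were higher (39.5%) and 26 lower (22.8%), against 23.9% and 28.3% of all tested genes. The median log2 fold change over the tested P450 genes was 0.27 beside AI2.2-A, 0.38 beside CTB P6B8 and 0.25 beside MTS P5D6, while over all tested genes it was -0.0047, 0.0025 and -0.051. Changes of at least 2-fold, up against down, numbered 28 and 11 beside AI2.2-A (8.08% and 2.47% of all tested genes), 31 and 4 beside CTB P6B8 (8.56% and 2.3%), and 27 and 10 beside MTS P5D6 (8.42% and 5.4%). The 3 comparisons share the 4 control libraries, so their counts are not independent of each other. With all 3 isolates, 25 P450 genes were higher (21.9%, against 11.2% of all tested genes) and 7 were lower (6.14%, against 12.5%). At least 1 isolate gave a call for 98 P450 genes (86.0%, against 74.2%), and 16 had none. Members were counted and not tested as a set, so these shares describe the list.

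P450 transcripts also made up more of each library. They took 0.186% to 0.235% of the counts beside AI2.2-A, 0.203% to 0.258% beside CTB P6B8 and 0.232% to 0.261% beside MTS P5D6, against 0.157% to 0.164% in the control libraries, without overlap. Total counts ran from 16755755 to 25123025 in the 11 isolate libraries and from 13852517 to 20556455 in the 4 control libraries. Markers of the labelled tissue were read as well, but without libraries of another tissue they cannot show how well the label holds. The 22 genes of photosynthesis in green tissue held 2.87% to 3.52% of the counts beside AI2.2-A, 2.58% to 3.02% beside CTB P6B8, 2.44% to 2.67% beside MTS P5D6 and 3.97% to 4.42% in control shoots. A single gene described as root-specific had 86.0 to 151 CPM beside AI2.2-A, 125 to 182 CPM beside CTB P6B8, 66.7 to 119 CPM beside MTS P5D6 and 157 to 173 CPM in control shoots. The green share was thus lower in every isolate library than in every control library, and its part in the P450 results was not tested. In whole shoots, a change in the share of a cell type and a change in RNA per cell cannot be told apart. Values are given below as CPM, a gene's counts divided by the normalized size of its library, replicate by replicate in number order. They are not compared between genes because no gene lengths enter them.

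**Figure D1:**
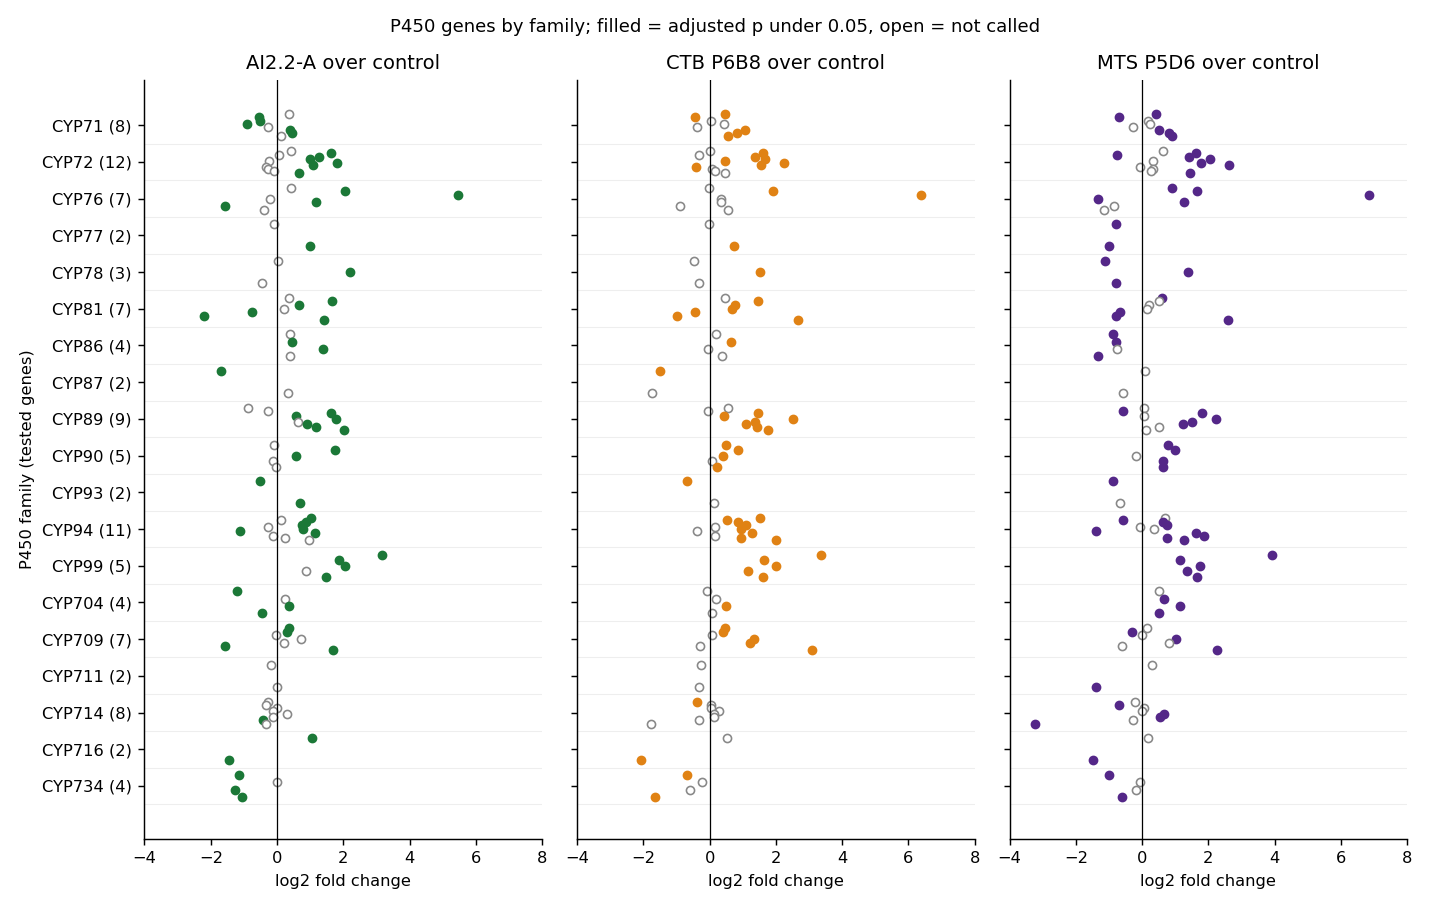
Log2 fold changes over control shoots (horizontal axis) of the tested P450 genes in the families with at least 2 tested members (vertical axis, number of tested genes in brackets), in 3 panels that run from AI2.2-A at the left through CTB P6B8 to MTS P5D6. Filled points are called at an adjusted p under 0.05 and open points are not. CYP99 and CYP89 points lie mostly right of 0 and CYP734 points lie at or left of 0 in each panel, while CYP86 and CYP77 lie right of or near 0 beside AI2.2-A and CTB P6B8 and left of 0 beside MTS P5D6.

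The CYP71, CYP76 and CYP99 families, which make specialised defence compounds in many plants, had 20 tested genes. Of these, 9 rose and 4 fell beside AI2.2-A, 11 rose and 1 fell beside CTB P6B8, and 13 rose and 2 fell beside MTS P5D6. CYP99A2, which in rice belongs to the gene cluster for the diterpenoid phytoalexins called momilactones, had 5 tested genes. Of these 4 rose beside AI2.2-A and 5 with each of the other 2 isolates. The gene with the most counts among them, CYP99A2 LOC117859811, had 40.7, 41.0, 58.7 and 53.1 CPM beside AI2.2-A, 64.6, 32.5 and 43.1 CPM beside CTB P6B8 and 62.8, 18.3, 55.1 and 20.8 CPM beside MTS P5D6. Control shoots held 4.99, 14.8, 13.3 and 13.6 CPM. Every isolate library stood above every control library, but the MTS P5D6 libraries split into a high pair (replicates 1 and 3) and a low pair (replicates 2 and 4), and control replicate 1 was below the other controls. The log2 fold changes were 2.04 ± 0.39 beside AI2.2-A, 1.99 ± 0.40 beside CTB P6B8 and 1.74 ± 0.39 beside MTS P5D6 (SE; largest edgeR adjusted p = 0.00135).

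Control replicate 1 and MTS P5D6 replicate 2 were again the lowest of their groups in the other CYP99A2 genes and in CYP76M5 LOC117842859, whose rice namesake lies in the cluster for another diterpenoid phytoalexin group, the phytocassanes. In the reference annotation this CYP76M5 gene, CYP99A2 LOC117842511 and CYP99A2 LOC117841995 neighbour each other with at most 2 protein-coding genes between neighbours, and all 3 rose with each isolate. CYP76M5 LOC117842859 had 19.6, 18.3, 22.3 and 23.1 CPM beside AI2.2-A, 21.1, 17.7 and 18.6 CPM beside CTB P6B8 and 21.1, 6.03, 24.9 and 11.7 CPM beside MTS P5D6. The controls had 3.64, 7.07, 5.11 and 4.34 CPM. Beside AI2.2-A and CTB P6B8 it was above all controls, and MTS P5D6 replicate 2 lay inside the control range. On the log2 scale the differences from control were 2.04 ± 0.32 beside AI2.2-A, 1.92 ± 0.34 beside CTB P6B8 and 1.65 ± 0.32 beside MTS P5D6 (SE; largest edgeR adjusted p = 4.95e-04). Across the 5 tested CYP99A2 genes and this CYP76M5 gene, control replicate 1 was the lowest control for 6 of 6, and MTS P5D6 replicate 2 was the lowest of its group for 6 of 6. Summed over the 6 genes, the level was 117 ± 15.9 CPM beside AI2.2-A (SD, n = 4), 113 ± 29.2 CPM beside CTB P6B8 (n = 3), 99.7 ± 55.8 CPM beside MTS P5D6 (n = 4) and 32.6 ± 11.8 CPM in control shoots (n = 4). CYP99A2 LOC117841995 was near the floor in controls and clear of it with every isolate, at 2.48, 1.79, 3.69 and 1.49 CPM beside AI2.2-A, 2.60, 1.38 and 3.94 CPM beside CTB P6B8 and 3.45, 1.74, 6.60 and 4.13 CPM beside MTS P5D6. Control libraries gave 0.0675, 0.272, 0.153 and 0.465 CPM. None of its isolate libraries overlapped the controls, and its log2 fold changes were 3.17 ± 0.57 beside AI2.2-A, 3.36 ± 0.58 beside CTB P6B8 and 3.93 ± 0.55 beside MTS P5D6 (SE; largest edgeR adjusted p = 2.98e-04). CYP99A2 LOC117842511 gave 1.14 ± 0.43 beside MTS P5D6 (SE; edgeR adjusted p = 0.0336), and its MTS P5D6 replicates 2 and 4 lay within the control range. CYP99A2 LOC117842511 lost its MTS P5D6 call without MTS P5D6 replicates 1 or 3 or control replicates 1, 3 or 4 (edgeR adjusted p = 0.0544 to 0.139). CYP99A2 LOC117860031 lost its CTB P6B8 call without CTB P6B8 replicate 1 or control replicate 1 (edgeR adjusted p = 0.0626 to 0.131). MTS P5D6 replicate 2 also lay within the control range for CYP99A2 LOC117860031, at 5.33 CPM, and CYP99A2 LOC117860109, at 3.21 CPM.

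**Figure D2:**
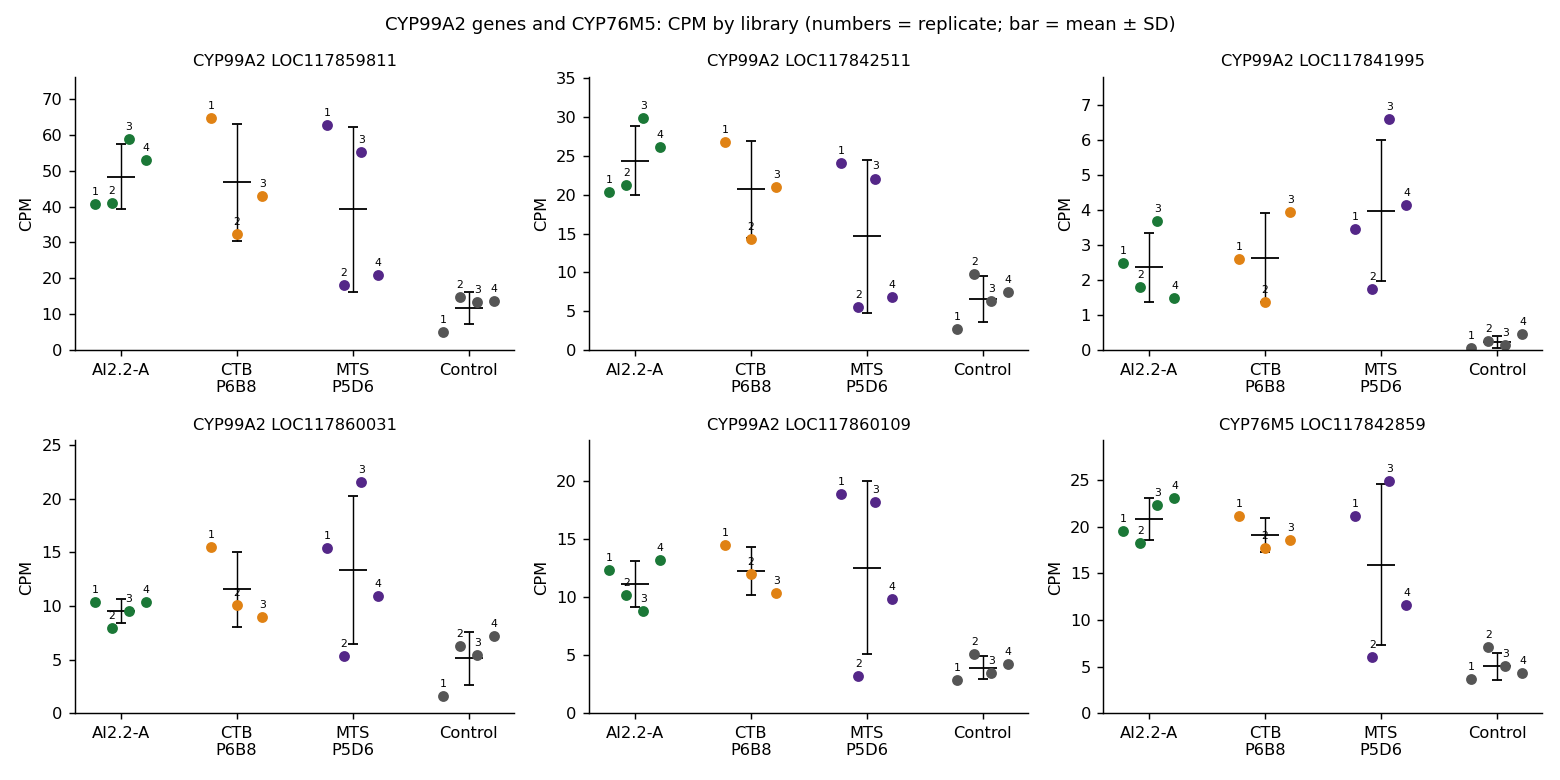
CPM values (vertical axes) of the 5 tested CYP99A2 genes and of CYP76M5 LOC117842859 in every library, by group, from AI2.2-A through CTB P6B8 to MTS P5D6, then Control; numbers give the replicate, and bars the mean ± SD (n = 4, 3, 4 and 4). MTS P5D6 replicate 2 is the lowest of its group in all 6 panels, and control replicate 1 is the lowest control in all 6.

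CYP76M5 LOC117846461, a further copy, was close to silent in control shoots, with 1 count in 1 of the 4 control libraries. It had 80 counts beside AI2.2-A, 117 beside CTB P6B8 and 175 beside MTS P5D6, unevenly spread over the libraries, at 0.0399, 0.735, 0.104 and 2.93 CPM beside AI2.2-A, 0.179, 2.42 and 2.74 CPM beside CTB P6B8 and 1.32, 0.761, 1.70 and 6.41 CPM beside MTS P5D6. Its control level was 0, 0.0544, 0 and 0 CPM. The ratio to control was 117 beside CTB P6B8 (95% interval 20.6 to 4665) and 159 beside MTS P5D6 (28.2 to 6316), where the intervals cover counting error alone. Beside AI2.2-A the ratio was 60.4 (10.5 to 2417), and replicate 4 held most of the counts. The edgeR adjusted p was 0.0308 beside AI2.2-A, 0.00992 beside CTB P6B8 and 0.00316 beside MTS P5D6. CYP76M5 LOC117846461 lost its AI2.2-A call without AI2.2-A replicate 4 or control replicates 1, 2, 3 or 4 (edgeR adjusted p = 0.0622 to 0.156).

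CYP76C2 LOC117859999, named for an Arabidopsis family of monoterpenol oxidases, was higher beside AI2.2-A and beside MTS P5D6. It had 68.5, 55.6, 64.2 and 70.4 CPM beside AI2.2-A, 38.5, 35.8 and 33.6 CPM beside CTB P6B8 and 83.5, 53.5, 75.2 and 65.1 CPM beside MTS P5D6. In controls it stood at 19.1, 40.0, 28.0 and 26.9 CPM. The AI2.2-A and MTS P5D6 libraries were all above the controls, and the CTB P6B8 libraries lay within the control range. The log2 fold change was 1.18 ± 0.17 (SE; edgeR adjusted p = 5.14e-05) beside AI2.2-A, 1.28 ± 0.17 (SE; edgeR adjusted p = 1.64e-05) beside MTS P5D6 and 0.33 ± 0.18 (SE; edgeR adjusted p = 0.156) beside CTB P6B8. The direct differences bore on the same gene, with 0.85 ± 0.18 (SE; edgeR adjusted p = 0.0105) for AI2.2-A over CTB P6B8 and -0.95 ± 0.18 (SE; edgeR adjusted p = 0.0018) for CTB P6B8 over MTS P5D6.

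CYP71A1 carries the name of an avocado enzyme, and its genes went both ways. CYP71A1 LOC117855934 had 116, 113, 107 and 108 CPM beside AI2.2-A, 140.4, 149 and 139 CPM beside CTB P6B8 and 135, 114, 161 and 153 CPM beside MTS P5D6, against 71.1, 77.4, 89.3 and 85.4 CPM in control shoots, with all isolate libraries above all controls. By edgeR the log2 fold changes were 0.46 ± 0.10 beside AI2.2-A, 0.82 ± 0.10 beside CTB P6B8 and 0.80 ± 0.10 beside MTS P5D6 (SE; largest edgeR adjusted p = 0.00108). CYP71A1 LOC117846992 moved the other way, at 26.4, 39.0, 27.5 and 30.5 CPM beside AI2.2-A, 33.7, 30.6 and 35.7 CPM beside CTB P6B8 and 25.8, 31.1, 27.5 and 28.2 CPM beside MTS P5D6, against 52.7, 46.2, 40.6 and 42.0 CPM in control shoots, with all isolate libraries below all controls. The fitted log2 fold changes were -0.56 ± 0.11 beside AI2.2-A, -0.44 ± 0.12 beside CTB P6B8 and -0.69 ± 0.12 beside MTS P5D6 (SE; largest edgeR adjusted p = 0.0081). CYP71A1 LOC117855933, in the same run of 5 neighbouring CYP71 genes as LOC117855934, rose most beside CTB P6B8, at 1.06 ± 0.14 (SE; edgeR adjusted p = 1.95e-05), and its CTB P6B8 libraries held 22.2, 25.2 and 22.1 CPM against 12.4, 11.7, 11.1 and 9.46 CPM in controls. In the same run CYP71D13 LOC117854467, named for a mint limonene hydroxylase, fell beside AI2.2-A, at -0.90 ± 0.29 (SE; edgeR adjusted p = 0.016), and gave 0.43 ± 0.28 (SE; edgeR adjusted p = 0.224) beside CTB P6B8. Its level was 1.16, 1.06, 1.14 and 0.720 CPM in the AI2.2-A libraries and 3.00, 3.40 and 1.47 CPM in the CTB P6B8 libraries, against 2.29, 2.34, 1.76 and 1.29 CPM in controls. CYP71D13 LOC117854467 lost its AI2.2-A call without control replicate 2 (edgeR adjusted p = 0.0543). A further gene, CYP71A1 LOC117842818, rose by 0.46 beside CTB P6B8 and 0.43 beside MTS P5D6. Its CTB P6B8 call was lost without CTB P6B8 replicates 1 or 2 or control replicates 1, 3 or 4 (edgeR adjusted p = 0.0738 to 0.301). Its MTS P5D6 call was lost without MTS P5D6 replicates 1 or 4 or control replicates 1, 3 or 4 (edgeR adjusted p = 0.0723 to 0.127).

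Lignin is built from phenylalanine through 3 P450 steps: cinnamate 4-hydroxylase (CYP73), coumaroyl shikimate 3'-hydroxylase (CYP98) and ferulate 5-hydroxylase (CYP84, the step towards syringyl units). The 3 tested genes named by family all rose beside AI2.2-A and beside CTB P6B8, and 1 of the 3 rose beside MTS P5D6. Genes named by the reaction, trans-cinnamate 4-monooxygenase, were not counted there. Of the 2 tested, 1 rose beside AI2.2-A, 1 beside CTB P6B8 and 1 beside MTS P5D6, where the same backgrounds of 23.4%, 22.6% and 23.9% apply. The copy with more counts, LOC117848910, chosen after its values were seen, had 151, 158, 139 and 159 CPM beside AI2.2-A. It had 203, 195 and 165 CPM beside CTB P6B8 and 253, 213, 223 and 249 CPM beside MTS P5D6, the highest group. Its controls gave 122, 133, 130 and 130 CPM. CYP98A1 LOC117849885 had 21.6, 25.6, 18.3 and 18.7 CPM beside AI2.2-A, 15.8, 15.7 and 17.3 CPM beside CTB P6B8 and 13.7, 9.40, 12.7 and 10.1 CPM beside MTS P5D6. The control values were 14, 10.9, 12.1 and 9.15 CPM. The AI2.2-A and CTB P6B8 libraries were above all controls, and the MTS P5D6 libraries overlapped them. On the log2 scale the difference from control was 0.88 ± 0.15 (SE; edgeR adjusted p = 1.66e-04) beside AI2.2-A, 0.51 ± 0.16 (SE; edgeR adjusted p = 0.0153) beside CTB P6B8 and 0.00 ± 0.15 (SE; edgeR adjusted p = 0.983) beside MTS P5D6. AI2.2-A stood above MTS P5D6 by 0.87 ± 0.14 (SE; edgeR adjusted p = 1.87e-04). CYP84A1 LOC117840528 had 15.5, 16.9, 13.2 and 13.3 CPM beside AI2.2-A, 13.3, 15.0 and 10.3 CPM beside CTB P6B8 and 9.81, 4.46, 12.2 and 7.15 CPM beside MTS P5D6. Control shoots held 4.18, 6.96, 6.57 and 5.43 CPM. Again AI2.2-A and CTB P6B8 were clear of the controls, and MTS P5D6 replicate 2 was inside their range while replicate 3 was far above it. By edgeR the log2 fold change was 1.35 ± 0.24 (SE; edgeR adjusted p = 2.63e-04) beside AI2.2-A, 1.15 ± 0.25 (SE; edgeR adjusted p = 0.00169) beside CTB P6B8 and 0.54 ± 0.24 (SE; edgeR adjusted p = 0.0735) beside MTS P5D6. CYP98A1 LOC117849885 lost its CTB P6B8 call without control replicate 4 (edgeR adjusted p = 0.054).

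CYP73A100 LOC117850934 was detected only where an isolate was present. No control library held a count of it, while AI2.2-A libraries held 132 counts in all, CTB P6B8 libraries 28 and MTS P5D6 libraries 39, or 1.20, 2.89, 0.833 and 1.10 CPM beside AI2.2-A, 0.537, 0.576 and 0.232 CPM beside CTB P6B8 and 1.15, 0.435, 0.413 and 0.123 CPM beside MTS P5D6. Set against a floor of 3 counts over the control group, it was at least 33.2-fold higher beside AI2.2-A, at least 9.34-fold higher beside CTB P6B8 and at least 11.8-fold higher beside MTS P5D6. The edgeR adjusted p was 1.52e-04 beside AI2.2-A, 0.00584 beside CTB P6B8 and 0.00231 beside MTS P5D6. The gene stayed at low counts everywhere, and its libraries varied by several fold within each group.

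Flavonoid, strigolactone, sterol and carotenoid families had 6 tested genes between them, not counting enzymes named by their reaction only. CYP93G2, in rice the flavanone 2-hydroxylase that leads to C-glycosyl flavones, was lower with each isolate: CYP93G2 LOC117843456 had 3.75, 6.93, 5.83 and 3.79 CPM beside AI2.2-A, 4.70, 3.92 and 4.79 CPM beside CTB P6B8 and 3.29, 3.70, 4.08 and 4.62 CPM beside MTS P5D6. The controls had 8.10, 7.18, 8.02 and 5.74 CPM. The CTB P6B8 and MTS P5D6 libraries were all below the controls, and AI2.2-A replicates 2 and 3 overlapped them. Over control the log2 fold changes were -0.51 ± 0.19 beside AI2.2-A, -0.69 ± 0.21 beside CTB P6B8 and -0.88 ± 0.20 beside MTS P5D6 (SE; largest edgeR adjusted p = 0.036). CYP93G1, in rice the flavone synthase, gave 0.71 ± 0.28 (SE; edgeR adjusted p = 0.0466) beside AI2.2-A and -0.66 ± 0.31 (SE; edgeR adjusted p = 0.0862) beside MTS P5D6 for LOC117862541, and AI2.2-A stood above MTS P5D6 by 1.37 ± 0.29 (SE; edgeR adjusted p = 0.00134). CYP711A1 is the Arabidopsis MAX1 enzyme of strigolactone synthesis. CYP711A1 LOC117854968 had 3.39, 4.04, 3.75 and 3.26 CPM beside AI2.2-A, 2.69, 3.05 and 3.02 CPM beside CTB P6B8 and 1.26, 1.68, 1.29 and 1.23 CPM beside MTS P5D6, against 4.18, 3.26, 3.59 and 3.52 CPM in control shoots, so that the MTS P5D6 libraries were the lowest of all and AI2.2-A overlapped the controls. The fitted log2 fold change was -1.40 ± 0.16 (SE; edgeR adjusted p = 2.78e-06) beside MTS P5D6, -0.01 ± 0.14 (SE; edgeR adjusted p = 0.987) beside AI2.2-A and -0.32 ± 0.16 (SE; edgeR adjusted p = 0.108) beside CTB P6B8, and the other tested CYP711A1 gene, LOC117838173, was called against Control with no isolate. The sterol desaturase CYP710A1 LOC117858509 and CYP97B2 LOC117838121 of a carotenoid hydroxylase family were called with no isolate, at log2 fold changes of 0.18 to 0.31 for CYP710A1 and -0.10 to 0.03 for CYP97B2. CYP93G2 LOC117843456 lost its AI2.2-A call without AI2.2-A replicates 1 or 4, CTB P6B8 replicate 3 or control replicates 1, 2 or 3 (edgeR adjusted p = 0.0585 to 0.115) and its CTB P6B8 call without CTB P6B8 replicate 2 (edgeR adjusted p = 0.054). CYP93G1 LOC117862541 lost its AI2.2-A call without AI2.2-A replicates 1, 2 or 3, CTB P6B8 replicates 1 or 2, MTS P5D6 replicates 1, 2, 3 or 4 or control replicates 2, 3 or 4 (edgeR adjusted p = 0.0503 to 0.146). For CYP93G1 LOC117862541 the log2 fold change became 1.10 beside AI2.2-A without control replicate 1.

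Brassinosteroids are growth-promoting steroid hormones, made by enzymes of the CYP85, CYP90 and CYP724 families and inactivated by CYP734A enzymes. Beside MTS P5D6, 5 of the 6 CYP85 and CYP90 genes rose and none fell. CTB P6B8 raised 4 of the 6, AI2.2-A raised 2 of the 6, and neither lowered any. The CTB P6B8 calls of LOC117866170, LOC117856813 and LOC117847346 were each lost when some single libraries were left out, as given below. The 1 CYP724 gene, given below, fell beside MTS P5D6 and rose beside AI2.2-A. Over all 11 genes of the synthesis and CYP734A families, 45.5% rose and 27.3% fell beside MTS P5D6, against 23.9% and 28.3% of all tested genes. Beside CTB P6B8 36.4% rose and 18.2% fell (22.6% and 22.7%), and beside AI2.2-A 27.3% each (23.4% and 24.3%). CYP90A4 LOC117866170, of the family of the Arabidopsis CPD enzyme, had 43.9, 44.5, 41.0 and 46.4 CPM beside AI2.2-A, 53.3, 45.1 and 56.0 CPM beside CTB P6B8 and 63.9, 66.9, 71.4 and 74.9 CPM beside MTS P5D6. Control libraries gave 42.5, 43.0, 47.9 and 44.9 CPM. All MTS P5D6 libraries stood above all other libraries, and AI2.2-A libraries overlapped the controls. Over control the log2 fold change was 0.64 ± 0.08 (SE; edgeR adjusted p = 5.60e-06) beside MTS P5D6 and -0.02 ± 0.08 (SE; edgeR adjusted p = 0.849) beside AI2.2-A, and for AI2.2-A over MTS P5D6 it was -0.66 ± 0.08 (SE; edgeR adjusted p = 9.63e-06). CYP90B enzymes carry out C-22 hydroxylation at the entry to the pathway, and CYP90B2 LOC117841038 rose beside MTS P5D6 at 0.79 ± 0.13 (SE; edgeR adjusted p = 7.83e-05) and beside CTB P6B8 at 0.48 ± 0.14 (SE; edgeR adjusted p = 0.00858). CYP85A1 LOC117838234, of the family that makes the last synthesis step, had 4.47, 5.88, 3.23 and 6.34 CPM beside AI2.2-A, 8.95, 5.59 and 4.29 CPM beside CTB P6B8 and 9.43, 10.0, 10.5 and 10.2 CPM beside MTS P5D6. Its control level was 7.29, 4.19, 4.73 and 4.39 CPM. Its MTS P5D6 libraries were above every other library, and the log2 fold change was 0.97 ± 0.24 (SE; edgeR adjusted p = 0.00269) beside MTS P5D6 and -0.04 ± 0.24 (SE; edgeR adjusted p = 0.904) beside AI2.2-A. CYP90D2 LOC117847346, named for the rice D2 enzyme, was the gene of this group that rose with all 3 isolates, at 4.83, 4.91, 5.52 and 6.43 CPM beside AI2.2-A, 2.82, 2.07 and 3.67 CPM beside CTB P6B8 and 2.30, 3.75, 3.61 and 3.02 CPM beside MTS P5D6. In controls it stood at 1.01, 1.36, 1.91 and 2.07 CPM. The AI2.2-A libraries were highest, and CTB P6B8 replicate 2 was level with the highest control. These were log2 fold changes of 1.76 ± 0.23 beside AI2.2-A, 0.86 ± 0.25 beside CTB P6B8 and 0.99 ± 0.24 beside MTS P5D6 (SE; largest edgeR adjusted p = 0.0118). CYP90D2 LOC117847346 lost its CTB P6B8 call without CTB P6B8 replicate 3 (edgeR adjusted p = 0.0648). CYP90D2 LOC117856813, at 0.41 beside CTB P6B8, lost that call without control replicates 2 or 4 (edgeR adjusted p = 0.0534 to 0.0567). CYP90A4 LOC117866170 rose by 0.21 beside CTB P6B8. That call was lost without AI2.2-A replicate 1, CTB P6B8 replicates 1 or 3, MTS P5D6 replicate 3 or control replicates 1, 2 or 4 (edgeR adjusted p = 0.051 to 0.14).

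CYP734A enzymes inactivate brassinosteroids. Of the 4 CYP734A genes, all tested, 3 fell beside AI2.2-A and 2 with each of CTB P6B8 and MTS P5D6, and none rose. The shares that fell were 75.0%, 50.0% and 50.0%, against 24.3%, 22.7% and 28.3% of all tested genes. CYP734A2 LOC117837383 had 2.40, 2.52, 2.71 and 3.41 CPM beside AI2.2-A, 3.13, 5.47 and 3.05 CPM beside CTB P6B8 and 3.40, 3.59, 2.37 and 3.08 CPM beside MTS P5D6. The control values were 6.95, 6.69, 5.57 and 5.43 CPM. The AI2.2-A and MTS P5D6 libraries were all below the controls, while CTB P6B8 replicate 2 reached into their range. The log2 fold changes were -1.16 ± 0.20 beside AI2.2-A, -0.68 ± 0.21 beside CTB P6B8 and -0.99 ± 0.20 beside MTS P5D6 (SE; largest edgeR adjusted p = 0.0147). CYP734A6 LOC117854544 had 1.88, 1.56, 1.56 and 2.35 CPM beside AI2.2-A, 1.21, 1.04 and 1.43 CPM beside CTB P6B8 and 2.79, 3.37, 1.29 and 2.59 CPM beside MTS P5D6. Control shoots held 3.17, 3.70, 4.58 and 3.98 CPM. AI2.2-A and CTB P6B8 lay below all controls, and MTS P5D6 replicate 2 overlapped them. On the log2 scale the differences from control were -1.06 ± 0.24 beside AI2.2-A, -1.63 ± 0.27 beside CTB P6B8 and -0.62 ± 0.24 beside MTS P5D6 (SE; largest edgeR adjusted p = 0.0375). Summed over the 4 genes, CYP734A transcripts stood at 10.4 ± 1.6 CPM beside AI2.2-A (SD, n = 4), 10.4 ± 2.22 CPM beside CTB P6B8 (n = 3) and 11.7 ± 1.79 CPM beside MTS P5D6 (n = 4), against 16.4 ± 1.17 CPM in control shoots (n = 4). CYP724B1 LOC117865849, in rice the D11 enzyme of brassinosteroid synthesis, parted the isolates: it had 3.83, 5.55, 2.76 and 3.74 CPM beside AI2.2-A, 1.79, 1.27 and 1.86 CPM beside CTB P6B8 and 0.658, 0.924, 1.08 and 1.17 CPM beside MTS P5D6. The controls had 2.09, 2.83, 1.37 and 1.96 CPM. MTS P5D6 was below all controls, CTB P6B8 overlapped them, and AI2.2-A lay high with replicate 3 inside the control range. This was a log2 fold change of 0.93 ± 0.24 (SE; edgeR adjusted p = 0.00507) beside AI2.2-A and -1.12 ± 0.28 (SE; edgeR adjusted p = 0.00321) beside MTS P5D6, and AI2.2-A stood above MTS P5D6 by 2.05 ± 0.26 (SE; edgeR adjusted p = 2.30e-05). CYP734A2 LOC117837383 lost its CTB P6B8 call without CTB P6B8 replicates 1 or 3 (edgeR adjusted p = 0.0756 to 0.116). CYP734A6 LOC117854544 lost its MTS P5D6 call without CTB P6B8 replicate 3, MTS P5D6 replicates 3 or 4 or control replicates 2, 3 or 4 (edgeR adjusted p = 0.0539 to 0.104). For CYP734A6 LOC117854544 the log2 fold change became -0.40 beside MTS P5D6 without MTS P5D6 replicate 3.

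**Figure D3:**
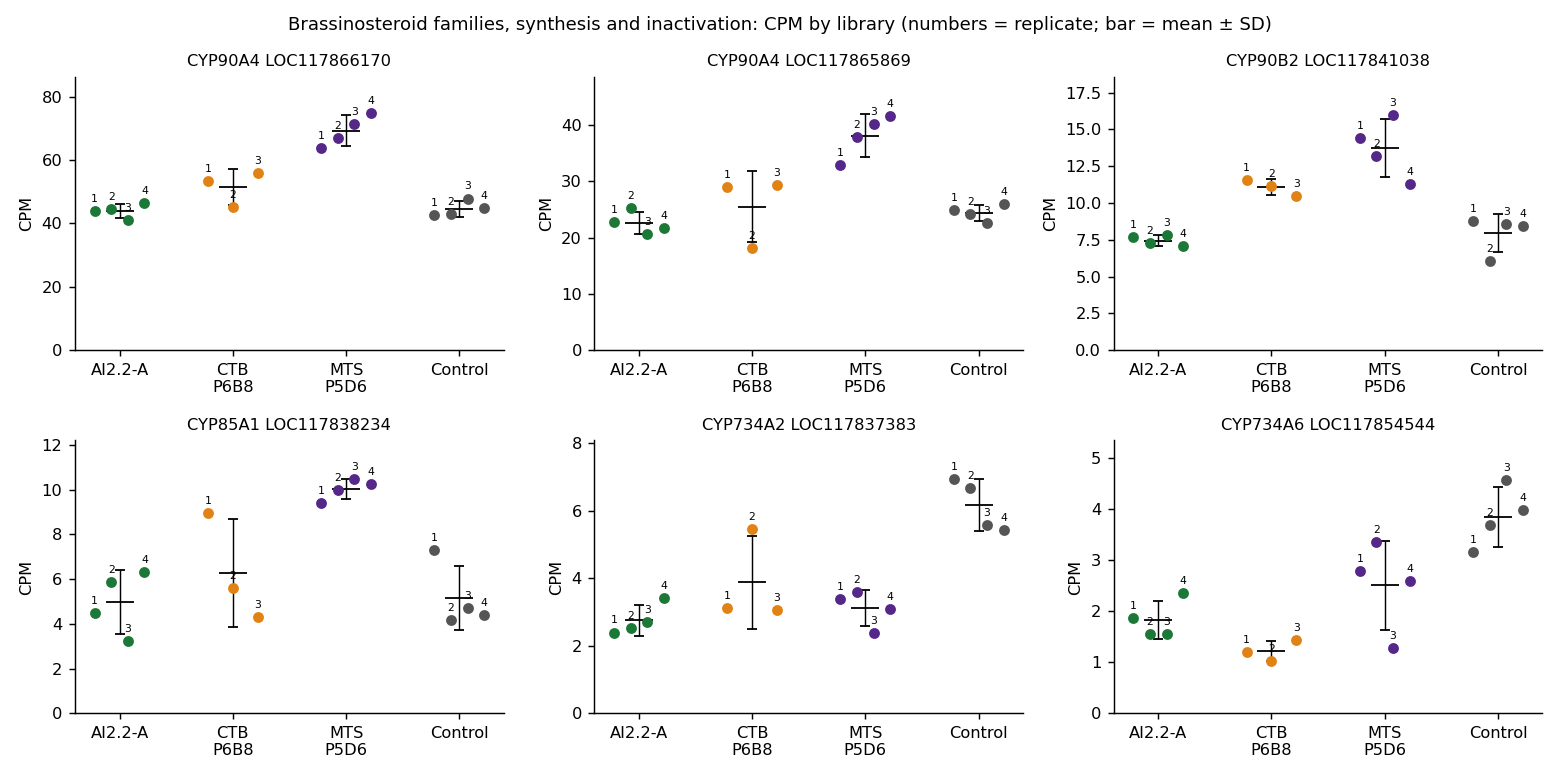
CPM values (vertical axes) of 4 genes of brassinosteroid synthesis families (2 CYP90A4, CYP90B2, CYP85A1) and of 2 inactivation genes (CYP734A2, CYP734A6) in every library, from AI2.2-A through CTB P6B8 to MTS P5D6, then Control; numbers give the replicate, and bars the mean ± SD (n = 4, 3, 4 and 4). MTS P5D6 has the highest group mean in the 4 synthesis panels, and the control mean is the highest in both CYP734A panels. The CYP90D2 genes and CYP724B1, also of synthesis families, are not drawn, and MTS P5D6 was not the highest group in them.

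Gibberellin families had 9 tested genes, of which 1 fell beside AI2.2-A, 2 fell beside CTB P6B8, and 3 fell and 2 rose beside MTS P5D6. As shares of the 9, the genes that fell were 11.1% beside AI2.2-A, 22.2% beside CTB P6B8 and 33.3% beside MTS P5D6, against 24.3%, 22.7% and 28.3% of all tested genes, and the 22.2% that rose beside MTS P5D6 stood against 23.9%. CYP88A1 LOC117859799 is named for maize Dwarf3, an ent-kaurenoic acid oxidase of gibberellin synthesis. It had 4.79, 3.67, 3.12 and 1.97 CPM beside AI2.2-A, 2.10, 0.979 and 1.31 CPM beside CTB P6B8 and 1.92, 1.74, 2.01 and 1.73 CPM beside MTS P5D6. Control libraries gave 6.55, 4.84, 4.96 and 4.19 CPM. All CTB P6B8 and MTS P5D6 libraries were below all controls, and AI2.2-A replicate 1 overlapped them. The log2 difference from control was -1.78 ± 0.29 (SE; edgeR adjusted p = 1.36e-04) beside CTB P6B8, -1.46 ± 0.26 (SE; edgeR adjusted p = 1.97e-04) beside MTS P5D6 and -0.59 ± 0.24 (SE; edgeR adjusted p = 0.0546) beside AI2.2-A. CYP714 enzymes modify and mostly inactivate gibberellins, as the rice EUI enzyme does. CYP714C2 LOC117863504 had 117, 101, 148 and 155 CPM beside AI2.2-A, 149, 137 and 177 CPM beside CTB P6B8 and 207, 209.7, 216 and 200.3 CPM beside MTS P5D6, against 132, 135, 152 and 149 CPM in control shoots, so that MTS P5D6 stood apart at the top and the other isolates overlapped the controls. The log2 fold change beside MTS P5D6 was 0.55 ± 0.12 (SE; edgeR adjusted p = 8.61e-04). CYP714C3 LOC117867110 fell beside MTS P5D6 to 0.0548, 0.0544, 0.103 and 0 CPM, against 0.338, 0.924, 0.611 and 0.414 CPM in controls, at -3.24 ± 0.85 (SE; edgeR adjusted p = 0.00445). These are a handful of counts per library.

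CYP78A enzymes set organ size in Arabidopsis and rice through a product that is not identified. CYP78A9 LOC117842026 had 9.82, 4.68, 7.18 and 4.13 CPM beside AI2.2-A, 4.34, 2.13 and 5.53 CPM beside CTB P6B8 and 3.62, 2.28, 5.26 and 3.64 CPM beside MTS P5D6. Its control level was 0.810, 1.47, 1.68 and 1.65 CPM. Every isolate library exceeded every control, the AI2.2-A libraries spread widely, and the log2 fold changes were 2.19 ± 0.36 beside AI2.2-A, 1.52 ± 0.38 beside CTB P6B8 and 1.39 ± 0.37 beside MTS P5D6 (SE; largest edgeR adjusted p = 0.00487). Of the other 2 genes of that name 1 was not tested, and LOC117862054 had 20.4, 21.9, 10.6 and 11.7 CPM beside AI2.2-A, 17.3, 13.9 and 21.1 CPM beside CTB P6B8 and 15.0, 12.1, 12.4 and 11.8 CPM beside MTS P5D6. In controls it stood at 25.0, 22.9, 21.4 and 18.9 CPM. Its MTS P5D6 libraries were below all controls, and the other isolates overlapped them, with a log2 fold change of -0.78 ± 0.20 (SE; edgeR adjusted p = 0.00449) for MTS P5D6. CYP78A11 LOC117836268, named for rice PLASTOCHRON1, gave -1.11 ± 0.35 (SE; edgeR adjusted p = 0.0136) beside MTS P5D6. CYP78A11 LOC117836268 lost its MTS P5D6 call without control replicate 3 (edgeR adjusted p = 0.0539).

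CYP94 enzymes oxidise fatty acids, and in Arabidopsis CYP94B3 and CYP94C1 oxidise and so turn over the active jasmonate, jasmonoyl-isoleucine. Of 11 tested CYP94 genes, 5 rose and 1 fell beside AI2.2-A, 8 rose and none fell beside CTB P6B8, and 6 rose and 2 fell beside MTS P5D6. The shares that rose were 45.5%, 72.7% and 54.5%, against 23.4%, 22.6% and 23.9% of all tested genes. Beside AI2.2-A 9.09% fell, against 24.3%, and beside MTS P5D6 18.2%, against 28.3%. CYP94C1 LOC117862775 had 7.19, 5.55, 5.10 and 3.50 CPM beside AI2.2-A, 5.51, 7.54 and 4.60 CPM beside CTB P6B8 and 7.29, 8.70, 8.0 and 6.04 CPM beside MTS P5D6. The control values were 3.31, 3.21, 1.83 and 1.34 CPM. All isolate libraries were above all controls, with AI2.2-A replicate 4 nearest to them. By edgeR the log2 fold changes were 1.15 ± 0.27 beside AI2.2-A, 1.27 ± 0.29 beside CTB P6B8 and 1.63 ± 0.27 beside MTS P5D6 (SE; largest edgeR adjusted p = 0.0027). CYP94C1 LOC117854516 had 7.31, 8.03, 10.6 and 6.67 CPM beside AI2.2-A, 10.1, 11.5 and 9.63 CPM beside CTB P6B8 and 8.71, 7.34, 8.36 and 8.20 CPM beside MTS P5D6. Control shoots held 3.31, 5.93, 6.41 and 3.77 CPM. Again no isolate library overlapped the controls, and the CTB P6B8 libraries and AI2.2-A replicate 3 were highest. The fitted log2 fold changes were 0.75 ± 0.19 beside AI2.2-A, 1.10 ± 0.20 beside CTB P6B8 and 0.75 ± 0.19 beside MTS P5D6 (SE; largest edgeR adjusted p = 0.00405). CYP94C1 LOC117866620 rose beside CTB P6B8 at 2.01 ± 0.41 (SE; edgeR adjusted p = 9.13e-04) and beside MTS P5D6 at 1.27 ± 0.40 (SE; edgeR adjusted p = 0.0149), and CTB P6B8 replicate 2 with 5.70 CPM stood far above its other libraries. CYP94B3 LOC117836395 rose beside CTB P6B8 at 1.51 ± 0.30 (SE; edgeR adjusted p = 7.28e-04) and beside AI2.2-A at 1.02 ± 0.29 (SE; edgeR adjusted p = 0.00803). Summed over the 12 CYP94B3 and CYP94C1 genes, of which 9 were tested, the level was 48.2 ± 4.66 CPM beside AI2.2-A (SD, n = 4), 67.4 ± 14 CPM beside CTB P6B8 (n = 3) and 56.3 ± 6.4 CPM beside MTS P5D6 (n = 4), against 37.9 ± 5.48 CPM in control shoots (n = 4). Between libraries the sums overlapped only for AI2.2-A, where replicate 4 fell below the highest control.

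CYP94C1 LOC117847308 did not follow the other CYP94C1 genes. It had 2.36, 2.48, 1.87 and 2.30 CPM beside AI2.2-A, 2.69, 3.40 and 2.94 CPM beside CTB P6B8 and 1.86, 1.09, 1.34 and 1.29 CPM beside MTS P5D6. The controls had 2.09, 2.28, 2.21 and 1.76 CPM. CTB P6B8 was above the controls, MTS P5D6 was mostly below them, and AI2.2-A overlapped them. Expressed as a log2 fold change this was 0.53 ± 0.19 (SE; edgeR adjusted p = 0.0332) beside CTB P6B8 and -0.57 ± 0.19 (SE; edgeR adjusted p = 0.0199) beside MTS P5D6, and CTB P6B8 stood above MTS P5D6 by 1.10 ± 0.19 (SE; edgeR adjusted p = 9.84e-04). CYP94C1 LOC117847308 lost its CTB P6B8 call without CTB P6B8 replicate 2 or control replicates 1 or 4 (edgeR adjusted p = 0.0562 to 0.117) and its MTS P5D6 call without MTS P5D6 replicate 2 or control replicate 2 (edgeR adjusted p = 0.0547 to 0.0603).

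Many genes of the fatty acid families separated MTS P5D6 from the other 2 isolates, in both directions. Of the 11 tested, 5 fell and 3 rose beside MTS P5D6 (45.5% and 27.3%, against 28.3% and 23.9% of all tested genes). AI2.2-A stood above MTS P5D6 for 6 and below it for 4 (54.5% and 36.4%, against 23.8% and 21.4%). CTB P6B8 stood above MTS P5D6 for 5 and below it for 3 (45.5% and 27.3%, against 15.2% and 11.1%). CYP86A and CYP77A enzymes hydroxylate or epoxidise the fatty acids of cutin, the polyester of the leaf surface, and Arabidopsis CYP86B1 acts on the very long chains of suberin. CYP86A4 LOC117862540 had 7.31, 6.56, 6.09 and 4.46 CPM beside AI2.2-A, 4.39, 7.37 and 6.53 CPM beside CTB P6B8 and 2.03, 1.58, 1.44 and 2.40 CPM beside MTS P5D6. Control libraries gave 4.66, 4.51, 5.42 and 4.24 CPM. All MTS P5D6 libraries lay below all others, and the other isolates overlapped the controls. The log2 fold change was -1.34 ± 0.21 (SE; edgeR adjusted p = 8.03e-05) beside MTS P5D6, 0.38 ± 0.19 (SE; edgeR adjusted p = 0.108) beside AI2.2-A and 0.37 ± 0.20 (SE; edgeR adjusted p = 0.147) beside CTB P6B8. CYP77A4 LOC117862709 had 8.46, 7.76, 6.04 and 4.75 CPM beside AI2.2-A, 4.52, 7.03 and 5.49 CPM beside CTB P6B8 and 1.64, 1.30, 1.70 and 2.03 CPM beside MTS P5D6. Its control level was 3.44, 2.77, 3.89 and 3.41 CPM. Here AI2.2-A and CTB P6B8 were above all controls and MTS P5D6 was below all of them. On the log2 scale the difference from control was 1.01 ± 0.20 (SE; edgeR adjusted p = 6.00e-04) beside AI2.2-A, 0.75 ± 0.21 (SE; edgeR adjusted p = 0.00875) beside CTB P6B8 and -1.01 ± 0.22 (SE; edgeR adjusted p = 0.00123) beside MTS P5D6, and AI2.2-A stood above MTS P5D6 by 2.02 ± 0.21 (SE; edgeR adjusted p = 3.89e-06). CYP86A2 LOC117835569 gave -0.89 ± 0.19 (SE; edgeR adjusted p = 0.00117) beside MTS P5D6, and AI2.2-A stood above MTS P5D6 by 1.29 ± 0.19 (SE; edgeR adjusted p = 7.01e-05). CYP77A4 LOC117862709 lost its CTB P6B8 call without CTB P6B8 replicate 2 (edgeR adjusted p = 0.0526).

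CYP86B1 LOC117839372 had 20.2, 21.0, 13.5 and 12.7 CPM beside AI2.2-A, 16.0, 20.8 and 21.0 CPM beside CTB P6B8 and 7.45, 6.20, 8.25 and 6.78 CPM beside MTS P5D6, against 16.0, 11.7, 11.5 and 10.4 CPM in control shoots, with every MTS P5D6 library below every other library. By edgeR the log2 fold change was -0.79 ± 0.18 (SE; edgeR adjusted p = 0.00194) beside MTS P5D6 and 0.63 ± 0.19 (SE; edgeR adjusted p = 0.0109) beside CTB P6B8, and CTB P6B8 stood above MTS P5D6 by 1.42 ± 0.19 (SE; edgeR adjusted p = 1.24e-04). CYP77A3 LOC117853298 gave -0.77 ± 0.13 (SE; edgeR adjusted p = 1.81e-04) beside MTS P5D6 and was called with neither of the other isolates. Of all tested genes 28.3% fell beside MTS P5D6, 23.8% stood higher beside AI2.2-A than beside MTS P5D6, and 15.2% higher beside CTB P6B8. Over CYP86A2, CYP86A4, CYP86B1 LOC117839372, CYP77A3 and CYP77A4, which were put together after their values were seen, all 5 fell beside MTS P5D6 and all 5 stood higher beside AI2.2-A and beside CTB P6B8 than beside MTS P5D6. This count follows from how the 5 genes were chosen. Their summed level was 52.5 ± 10.6 CPM beside AI2.2-A (SD, n = 4), 53.4 ± 9.39 CPM beside CTB P6B8 (n = 3) and 22.9 ± 2.23 CPM beside MTS P5D6 (n = 4), against 41.8 ± 4.51 CPM in control shoots (n = 4). AI2.2-A replicate 4 and CTB P6B8 replicate 1 were the lowest of their groups for 5 of 5 genes. The remaining tested CYP86B1 gene, LOC117841774, stood apart beside AI2.2-A, at 1.37 ± 0.33 (SE; edgeR adjusted p = 0.00308), with 0.878, 1.29, 1.35 and 0.960 CPM against 0.338, 0.435, 0.458 and 0.465 CPM in controls.

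**Figure D4:**
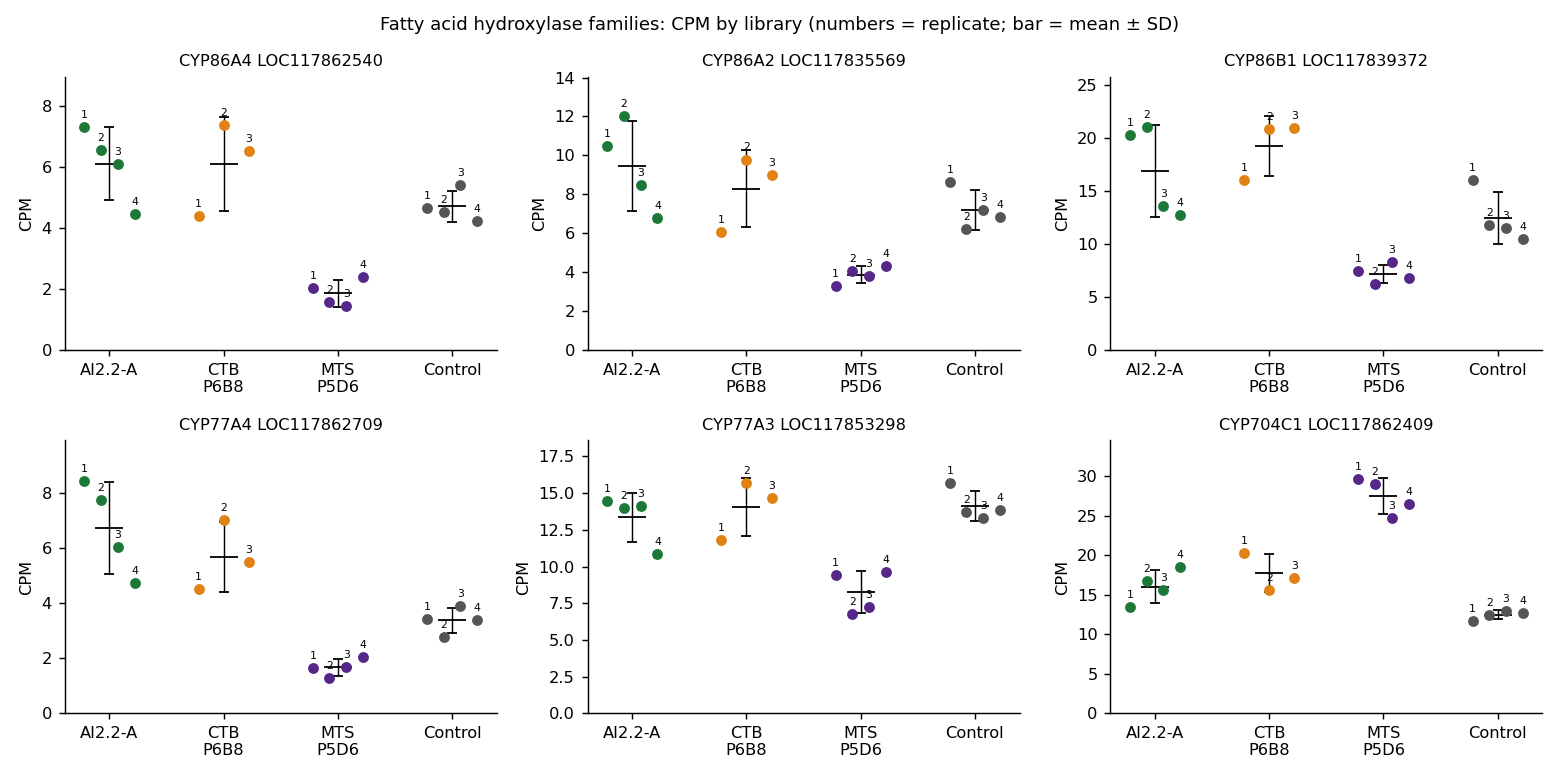
CPM values (vertical axes) of CYP86A4, CYP86A2, CYP86B1, CYP77A4, CYP77A3 and CYP704C1 genes in every library, from AI2.2-A through CTB P6B8 to MTS P5D6, then Control; numbers give the replicate, and bars the mean ± SD (n = 4, 3, 4 and 4). MTS P5D6 is the lowest group in the 5 CYP86 and CYP77 panels and the highest in the CYP704C1 panel.

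CYP704B and CYP703A enzymes act on fatty acids of the pollen wall in Arabidopsis and rice, and the role of their CYP704C1 relatives in shoots is not known from the names. Beside MTS P5D6, 3 of 4 tested CYP704C1 genes rose (75.0%, against 23.9% of all tested genes) and none fell. CYP704C1 LOC117862409 had 13.4, 16.8, 15.6 and 18.5 CPM beside AI2.2-A, 20.4, 15.7 and 17.2 CPM beside CTB P6B8 and 29.7, 29.1, 24.8 and 26.5 CPM beside MTS P5D6, against 11.7, 12.5, 13.0 and 12.7 CPM in control shoots, with all MTS P5D6 libraries above all others and no isolate library as low as a control. Over control the log2 fold changes were 0.36 ± 0.11 beside AI2.2-A, 0.51 ± 0.11 beside CTB P6B8 and 1.14 ± 0.11 beside MTS P5D6 (SE; largest edgeR adjusted p = 0.011). CYP704C1 LOC117839565 had 6.39, 14.3, 11.1 and 24.4 CPM beside AI2.2-A, 19.2, 50.4 and 22.7 CPM beside CTB P6B8 and 40.8, 43.7, 37.1 and 59.9 CPM beside MTS P5D6. In controls it stood at 28.5, 33.2, 35.6 and 31.2 CPM. All AI2.2-A libraries were below all controls, CTB P6B8 straddled them, and MTS P5D6 lay above them. The fitted log2 fold change was -1.20 ± 0.33 (SE; edgeR adjusted p = 0.00721) beside AI2.2-A and 0.50 ± 0.32 (SE; edgeR adjusted p = 0.199) beside MTS P5D6, and for AI2.2-A over MTS P5D6 it was -1.70 ± 0.33 (SE; edgeR adjusted p = 6.59e-04). CYP704C1 LOC117862487, which neighbours LOC117862409, fell beside AI2.2-A at -0.45 ± 0.13 (SE; edgeR adjusted p = 0.00944) and rose beside MTS P5D6 at 0.52 ± 0.13 (SE; edgeR adjusted p = 0.00293). Summed over 6 CYP704C1 genes, the level was 55.2 ± 12.3 CPM beside AI2.2-A (SD, n = 4), 79.7 ± 19.1 CPM beside CTB P6B8 (n = 3) and 116 ± 8.18 CPM beside MTS P5D6 (n = 4), against 73.7 ± 2.37 CPM in control shoots (n = 4).

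CYP72A genes made up the longest run of neighbouring P450 genes, 10 genes in the reference annotation with at most 2 other protein-coding genes between neighbours. The family acts on terpenoids in several plants. Within the run 6 genes rose and none fell beside AI2.2-A, 5 rose and 1 fell beside CTB P6B8, and 6 rose and 1 fell beside MTS P5D6. Over the 12 tested CYP72 genes 50.0% rose with each isolate, against 23.4%, 22.6% and 23.9% of all tested genes. The CTB P6B8 share includes CYP72A14 LOC117855409, outside the run, at a log2 fold change of 0.47. Its CTB P6B8 call was lost without CTB P6B8 replicates 1 or 2 or control replicates 1, 3 or 4 (edgeR adjusted p = 0.0712 to 0.157). The gene that fell beside CTB P6B8, LOC117857380, lost that call without any 1 of the CTB P6B8 or control libraries (edgeR adjusted p = 0.0633 to 0.237). The members did not move as 1 block: 5 genes were called higher with every isolate, and CYP72A15 LOC117858799, CYP72A15 LOC117857380 and CYP72A14 LOC117858898 had log2 fold changes between -0.40 and 0.33. Together the run took 27.0% to 38.1% of all P450 CPM beside AI2.2-A, 25.4% to 38.2% beside CTB P6B8 and 37.2% to 40.7% beside MTS P5D6, against 26.3% to 30.4% in control shoots.

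CYP72A219 LOC117855439 had 26.9, 29.3, 23.1 and 27.7 CPM beside AI2.2-A, 48.3, 24.8 and 35.2 CPM beside CTB P6B8 and 22.9, 27.4, 25.6 and 28.1 CPM beside MTS P5D6. The control values were 6.61, 7.83, 8.02 and 7.86 CPM. No isolate library came near the controls, and the log2 fold changes were 1.82 ± 0.16 beside AI2.2-A, 2.25 ± 0.17 beside CTB P6B8 and 1.77 ± 0.16 beside MTS P5D6 (SE; largest edgeR adjusted p = 6.46e-07). CYP72A219 LOC117857379 had 26.5, 48.0, 23.6 and 39.0 CPM beside AI2.2-A, 86.4, 30.6 and 25.4 CPM beside CTB P6B8 and 117, 93.5, 97.6 and 90.0 CPM beside MTS P5D6. Control shoots held 22.8, 13.7, 13.1 and 14.8 CPM. MTS P5D6 was highest, followed by CTB P6B8 replicate 1, and the other CTB P6B8 libraries were close to control replicate 1. These were log2 fold changes of 1.09 ± 0.33 beside AI2.2-A, 1.56 ± 0.35 beside CTB P6B8 and 2.63 ± 0.34 beside MTS P5D6 (SE; largest edgeR adjusted p = 0.0126), and for AI2.2-A over MTS P5D6 it was -1.54 ± 0.31 (SE; edgeR adjusted p = 9.68e-04). CYP72A13 LOC117859008, the member with the most counts, had 235, 305, 146 and 247 CPM beside AI2.2-A, 328, 141 and 132 CPM beside CTB P6B8 and 403, 429.6, 358 and 404 CPM beside MTS P5D6. The controls had 173, 152, 128 and 132 CPM. MTS P5D6 lay above all other libraries, and AI2.2-A and CTB P6B8 overlapped the controls, although the gene was also called higher beside AI2.2-A. Over control the log2 fold change was 1.44 ± 0.25 (SE; edgeR adjusted p = 1.66e-04) beside MTS P5D6 and 0.45 ± 0.26 (SE; edgeR adjusted p = 0.175) beside CTB P6B8, and for CTB P6B8 over MTS P5D6 it was -0.99 ± 0.27 (SE; edgeR adjusted p = 0.0135). CYP72A219 LOC117855072, CYP72A15 LOC117854627 and CYP72A14 LOC117854949 rose with each isolate, the first at 1.00 ± 0.26 beside AI2.2-A, 1.67 ± 0.27 beside CTB P6B8 and 2.06 ± 0.26 beside MTS P5D6 (SE; largest edgeR adjusted p = 0.00482). For LOC117854627 the log2 fold changes were 1.62 ± 0.28 beside AI2.2-A, 1.62 ± 0.30 beside CTB P6B8 and 1.62 ± 0.28 beside MTS P5D6 (SE; largest edgeR adjusted p = 3.96e-04). Outside the run, CYP72A14 LOC117855409 differed between isolates, and AI2.2-A over CTB P6B8 gave -0.72 ± 0.17 (SE; edgeR adjusted p = 0.0171). CTB P6B8 replicate 1 was the highest CTB P6B8 library for 7 of the 10 genes. For CYP72A219 LOC117857379 the log2 fold change became 0.80 beside CTB P6B8 without CTB P6B8 replicate 1. CYP72A13 LOC117859008 lost its CTB P6B8 over MTS P5D6 call without CTB P6B8 replicates 2 or 3 (edgeR adjusted p = 0.0627 to 0.0746). For CYP72A13 LOC117859008 the log2 fold change became -1.55 for CTB P6B8 over MTS P5D6 without CTB P6B8 replicate 1. For CYP72A15 LOC117854627 the log2 fold change became 1.01 beside CTB P6B8 without CTB P6B8 replicate 1. CYP72A14 LOC117855409 lost its AI2.2-A over CTB P6B8 call without CTB P6B8 replicate 2 (edgeR adjusted p = 0.0925).

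**Figure D5:**
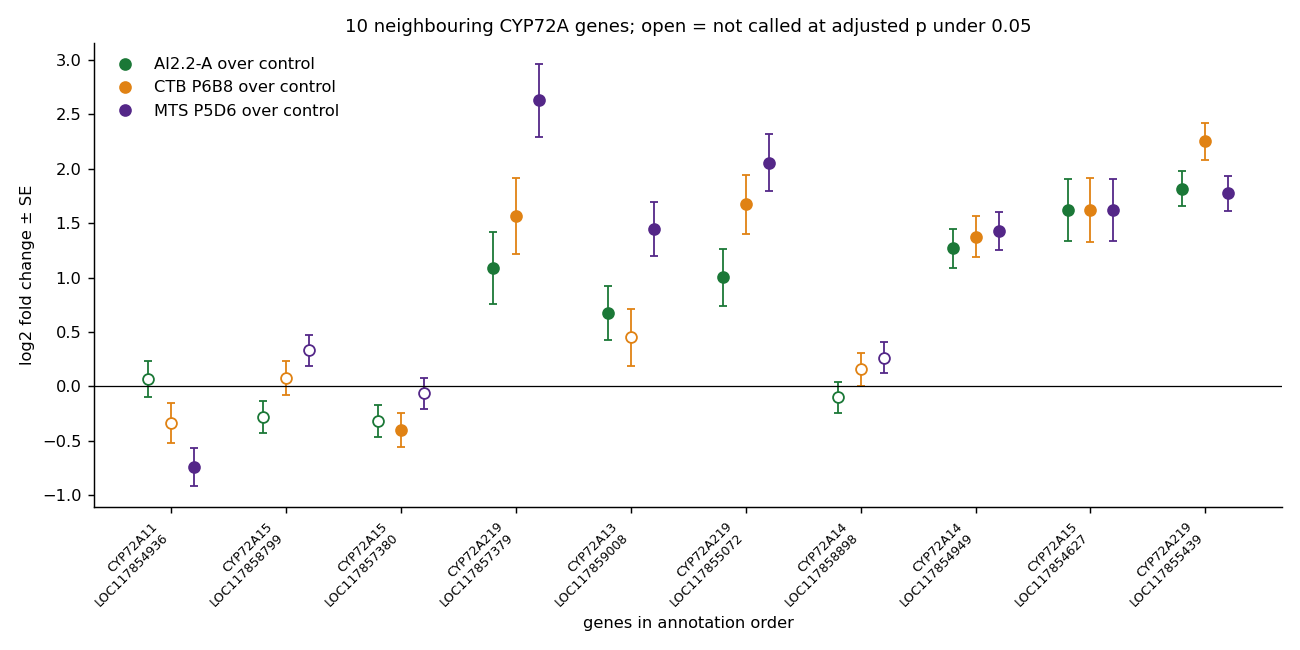
Log2 fold changes over control shoots with SE (vertical axis) of 10 neighbouring CYP72A genes in annotation order (horizontal axis), with points for AI2.2-A left of CTB P6B8 and those for MTS P5D6 to the right; filled points are called at an adjusted p under 0.05. The CYP72A219, CYP72A13, LOC117854949 and LOC117854627 points lie above 0 with all 3 isolates, and those of the other 4 genes lie nearer to or below 0.

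CYP89, one of whose Arabidopsis enzymes acts on chlorophyll breakdown products, had 9 tested genes: 6 rose beside AI2.2-A, 7 beside CTB P6B8 and 4 beside MTS P5D6, and 1 fell, beside MTS P5D6. The shares that rose were 66.7%, 77.8% and 44.4%, against 23.4%, 22.6% and 23.9% of all tested genes, and 11.1% fell, against 28.3%. Of the 7 CTB P6B8 calls, those of LOC117837039, LOC117845611 and LOC117861532 were lost when single libraries were left out (edgeR adjusted p up to 0.261). LOC117845611 went from 1.37 to 0.59 without CTB P6B8 replicate 1. CYP89A2 LOC117839913 had 0.758, 0.918, 0.676 and 0.624 CPM beside AI2.2-A, 1.34, 1.44 and 1.00 CPM beside CTB P6B8 and 0.987, 0.598, 1.24 and 1.29 CPM beside MTS P5D6, against 0.135, 0.435, 0.305 and 0 CPM in control shoots, so that all isolate libraries were above all controls at low counts, and its log2 fold changes were 1.77 ± 0.50 beside AI2.2-A, 2.51 ± 0.50 beside CTB P6B8 and 2.23 ± 0.49 beside MTS P5D6 (SE; largest edgeR adjusted p = 0.00839). CYP89A2 LOC117866721 rose beside AI2.2-A at 2.02 ± 0.39 (SE; edgeR adjusted p = 6.06e-04) and beside CTB P6B8 at 1.75 ± 0.42 (SE; edgeR adjusted p = 0.00316) and gave 0.13 ± 0.46 (SE; edgeR adjusted p = 0.838) beside MTS P5D6, and AI2.2-A stood above MTS P5D6 by 1.89 ± 0.38 (SE; edgeR adjusted p = 8.73e-04). CYP81 enzymes make isoflavonoids and lignans in other plants. Of 7 tested genes, 3 rose and 2 fell beside AI2.2-A, 4 rose and 2 fell beside CTB P6B8, and 2 rose and 2 fell beside MTS P5D6. The MTS P5D6 shares, 28.6% each, were near the 23.9% and 28.3% of all tested genes, as was the 28.6% that fell beside AI2.2-A or CTB P6B8, against 24.3% and 22.7%. CYP81Q32 LOC117855261 had 18.4, 34.2, 11.1 and 25.1 CPM beside AI2.2-A, 50.1, 70.7 and 37.9 CPM beside CTB P6B8 and 49.8, 56.8, 39.2 and 53.8 CPM beside MTS P5D6. Control libraries gave 10.9, 8.32, 6.64 and 7.13 CPM. CTB P6B8 and MTS P5D6 were highest and AI2.2-A lay between them and the controls, with AI2.2-A replicate 3 close to the highest control. The log2 fold changes were 1.43 ± 0.29 beside AI2.2-A, 2.68 ± 0.30 beside CTB P6B8 and 2.60 ± 0.29 beside MTS P5D6 (SE; largest edgeR adjusted p = 7.69e-04), and for AI2.2-A over CTB P6B8 it was -1.24 ± 0.27 (SE; edgeR adjusted p = 0.0111). CYP81Q32 LOC117849356 moved the other way, at 0.399, 0.826, 0.833 and 0.864 CPM beside AI2.2-A, 1.16, 3.05 and 1.04 CPM beside CTB P6B8 and 1.81, 2.23, 1.91 and 1.91 CPM beside MTS P5D6. Its control level was 3.04, 4.40, 2.90 and 3.05 CPM. AI2.2-A was lowest, MTS P5D6 lay between it and the controls, and CTB P6B8 replicate 2 overlapped the controls. On the log2 scale the differences from control were -2.21 ± 0.32 beside AI2.2-A, -0.98 ± 0.32 beside CTB P6B8 and -0.77 ± 0.29 beside MTS P5D6 (SE; largest edgeR adjusted p = 0.0365). CYP81Q32 LOC117848163 also fell with each isolate, at -0.77 ± 0.11 beside AI2.2-A, -0.44 ± 0.12 beside CTB P6B8 and -0.68 ± 0.11 beside MTS P5D6 (SE; largest edgeR adjusted p = 0.00728). CYP81Q32 LOC117855261 lost its AI2.2-A over CTB P6B8 call without CTB P6B8 replicate 2 (edgeR adjusted p = 0.071). CYP81Q32 LOC117849356 lost its CTB P6B8 call without CTB P6B8 replicates 1 or 3 or control replicate 2 (edgeR adjusted p = 0.0675 to 0.142) and its MTS P5D6 call without MTS P5D6 replicates 1, 3 or 4 or control replicate 2 (edgeR adjusted p = 0.0673 to 0.124). For CYP81Q32 LOC117849356 the log2 fold change became -1.60 beside CTB P6B8 without CTB P6B8 replicate 2 and -0.65 beside CTB P6B8 without CTB P6B8 replicate 3. CYP81Q32 LOC117848163 lost its CTB P6B8 call without CTB P6B8 replicate 3 (edgeR adjusted p = 0.0883). For CYP81Q32 LOC117848163 the log2 fold change became -0.30 beside CTB P6B8 without CTB P6B8 replicate 3.

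CYP709B2 had 7 tested genes, of which 3 rose and 1 fell beside AI2.2-A, 5 rose beside CTB P6B8, and 2 rose and 1 fell beside MTS P5D6. The MTS P5D6 shares were 28.6% and 14.3%, against 23.9% and 28.3% of all tested genes. Beside AI2.2-A 42.9% rose and 14.3% fell, against 23.4% and 24.3%, and beside CTB P6B8 71.4% rose, against 22.6%. LOC117842484 lost its CTB P6B8 call without CTB P6B8 replicate 1 (edgeR adjusted p = 0.072). LOC117842496 lost its own without CTB P6B8 replicate 2 (edgeR adjusted p = 0.221), where the log2 fold change went from 1.22 to 0.63. CYP709B2 LOC117843695 had 1.28, 3.72, 1.51 and 3.70 CPM beside AI2.2-A, 3.58, 10.4 and 4.60 CPM beside CTB P6B8 and 3.95, 4.84, 4.59 and 6.35 CPM beside MTS P5D6. In controls it stood at 9.31, 7.45, 6.41 and 6.88 CPM. All AI2.2-A libraries were below all controls, as were the MTS P5D6 libraries, and CTB P6B8 straddled them. This was a log2 fold change of -1.56 ± 0.35 (SE; edgeR adjusted p = 0.00181) beside AI2.2-A and -0.61 ± 0.34 (SE; edgeR adjusted p = 0.139) beside MTS P5D6. CYP87A3 LOC117842819, an auxin-responsive gene in rice coleoptiles, had 1.12, 1.06, 0.780 and 1.25 CPM beside AI2.2-A, 1.21, 1.73 and 0.734 CPM beside CTB P6B8 and 2.74, 4.02, 4.80 and 2.77 CPM beside MTS P5D6. The control values were 2.70, 2.61, 3.28 and 4.96 CPM. AI2.2-A and CTB P6B8 were below all controls, and MTS P5D6 overlapped them. The log2 difference from control was -1.69 ± 0.29 (SE; edgeR adjusted p = 2.12e-04) beside AI2.2-A, -1.51 ± 0.31 (SE; edgeR adjusted p = 0.00111) beside CTB P6B8 and 0.08 ± 0.26 (SE; edgeR adjusted p = 0.825) beside MTS P5D6, and for AI2.2-A over MTS P5D6 it was -1.76 ± 0.29 (SE; edgeR adjusted p = 1.58e-04). CYP3A29 LOC117845456, which carries the name of an animal P450, had 37.3, 51.3, 65.7 and 82.1 CPM beside AI2.2-A, 105, 103 and 104 CPM beside CTB P6B8 and 58.9, 75.1, 83.4 and 109 CPM beside MTS P5D6. Control shoots held 116, 132, 145 and 132 CPM. All isolate libraries were below all controls, AI2.2-A and MTS P5D6 overlapped each other, and the log2 fold change was -1.15 ± 0.19 (SE; edgeR adjusted p = 1.91e-04) beside AI2.2-A and -0.69 ± 0.19 (SE; edgeR adjusted p = 0.00712) beside MTS P5D6. CYP716A1 LOC117866660, of a family that oxidises triterpenes, fell with all 3 isolates, at -1.44 ± 0.45 beside AI2.2-A, -2.08 ± 0.53 beside CTB P6B8 and -1.49 ± 0.47 beside MTS P5D6 (SE; largest edgeR adjusted p = 0.0148). It was near the floor, with 7 to 16 counts per control library and 1 to 8 per isolate library. MTS P5D6 replicate 1, at 0.438 CPM, stood above control replicate 2, at 0.381 CPM.

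The 3 NADPH--cytochrome P450 reductases, on which most P450 enzymes of the endoplasmic reticulum depend, did not move together. LOC117861616 had 20.0, 30.6, 19.0 and 29.5 CPM beside AI2.2-A, 40.0, 32.4 and 20.3 CPM beside CTB P6B8 and 36.7, 34.8, 41.6 and 38.8 CPM beside MTS P5D6. The controls had 14.2, 14.2, 13.5 and 12.9 CPM. All isolate libraries were above all controls, and MTS P5D6 was highest as a group. By edgeR the log2 fold changes were 0.85 ± 0.19 beside AI2.2-A, 1.17 ± 0.20 beside CTB P6B8 and 1.47 ± 0.19 beside MTS P5D6 (SE; largest edgeR adjusted p = 0.0014). LOC117848722, the copy with the most counts, had 358, 278, 364 and 362 CPM beside AI2.2-A, 307, 335 and 304 CPM beside CTB P6B8 and 369, 376, 307 and 331 CPM beside MTS P5D6. Control libraries gave 372, 419, 417 and 429 CPM. The AI2.2-A and CTB P6B8 libraries were below all controls by a small margin, and MTS P5D6 replicate 2 overlapped them. The fitted log2 fold changes were -0.27 ± 0.09 beside AI2.2-A, -0.38 ± 0.10 beside CTB P6B8 and -0.24 ± 0.09 beside MTS P5D6 (SE; largest edgeR adjusted p = 0.0377). LOC117845367 gave -0.24 ± 0.07 beside AI2.2-A, -0.26 ± 0.07 beside CTB P6B8 and -0.31 ± 0.07 beside MTS P5D6 (SE; largest edgeR adjusted p = 0.00879), with all isolate libraries between 66.9 and 82.0 CPM and the controls between 87.7 and 93.8 CPM. Among the 9 cytochrome b5 genes, whose small heme protein can also pass an electron to P450 enzymes, 2 rose with each isolate. That is 22.2% of the list, near the 23.4%, 22.6% and 23.9% of all tested genes. LOC117864592 rose with all 3, at 1.05 ± 0.16 beside AI2.2-A, 1.31 ± 0.17 beside CTB P6B8 and 1.22 ± 0.16 beside MTS P5D6 (SE; largest edgeR adjusted p = 6.58e-05). LOC117848722 lost its AI2.2-A call without AI2.2-A replicate 2, CTB P6B8 replicate 3 or control replicates 2, 3 or 4 (edgeR adjusted p = 0.0536 to 0.0833) and its MTS P5D6 call without CTB P6B8 replicate 3, MTS P5D6 replicates 3 or 4 or control replicates 2, 3 or 4 (edgeR adjusted p = 0.0761 to 0.119). LOC117845367 lost its CTB P6B8 call without CTB P6B8 replicate 3 (edgeR adjusted p = 0.156). For LOC117845367 the log2 fold change became -0.14 beside CTB P6B8 without CTB P6B8 replicate 3.

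Set directly against each other, AI2.2-A and CTB P6B8 differed least. AI2.2-A was higher than CTB P6B8 for 5 P450 genes (background 4.53% of tested genes) and lower for 13 (background 5.86%), or 4.39% and 11.4% of the 114. Without CTB P6B8 replicate 2 these 18 calls came down to 4, and without AI2.2-A replicate 1 to 10. AI2.2-A was higher than MTS P5D6 for 26 (22.8%, background 23.8%) and lower for 27 (23.7%, background 21.4%). CTB P6B8 was higher than MTS P5D6 for 24 (21.1%, background 15.2%) and lower for 14 (12.3%, background 11.1%), and these 38 calls numbered 22 without CTB P6B8 replicate 3. P450 shares near the background say nothing particular about the family. Genes called higher with 1 isolate and lower with another numbered 6 (5.26%, against 3.09% of all tested genes): CYP709B2 LOC117838776, CYP86B1 LOC117839372, CYP94C1 LOC117847308, CYP704C1 LOC117862487, CYP77A4 LOC117862709 and CYP724B1 LOC117865849. In 5 of the 6 MTS P5D6 was the isolate on the low side, and in LOC117862487 it was on the high side. For CYP709B2 LOC117838776 the differences were small, at 0.30 ± 0.12 beside AI2.2-A, 0.39 ± 0.13 beside CTB P6B8 and -0.31 ± 0.12 beside MTS P5D6 (SE; largest edgeR adjusted p = 0.0485). CYP709B2 LOC117838776 lost its AI2.2-A call without AI2.2-A replicates 1, 2 or 3, CTB P6B8 replicate 1, MTS P5D6 replicates 1 or 4 or control replicates 1, 3 or 4 (edgeR adjusted p = 0.0551 to 0.155) and its CTB P6B8 call without CTB P6B8 replicate 1 or control replicates 1 or 4 (edgeR adjusted p = 0.0585 to 0.0656) and its MTS P5D6 call without AI2.2-A replicate 3, CTB P6B8 replicates 1 or 3, MTS P5D6 replicates 1, 2 or 4 or control replicates 2 or 3 (edgeR adjusted p = 0.051 to 0.145).

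Neighbouring P450 genes were counted from the reference annotation, which was used for gene order alone. Of the 140 P450 genes, 56 lay in 18 runs of 2 to 10 genes. Several runs held genes that went apart: of the pair CYP704C1 LOC117862409 and CYP704C1 LOC117862487, the first rose and the second fell beside AI2.2-A, and of the 5 genes in the CYP71 run 2 rose and 2 fell beside AI2.2-A. Same-named neighbours can share reads where their sequences are alike, and no source used here says how the counting treated such reads, so values of single genes in these runs are uncertain to that extent. Reads of overlapping antisense genes carry the same doubt, because the strand setting of the counting is not given either. The 26 P450 genes that were not tested had 10 to 84 counts over all 15 libraries and at most 1.09 CPM in any library.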

How the data were processed

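RNA-seq libraries of whole shoots were analysed from the table of raw counts per gene, which the authors deposited as whole numbers without normalization. Per the submitters' processing notes, FastQC, Trimmomatic, HISAT2, featureCounts and DESeq2 1.6.3 were used, with no role or order recorded; no source used here states the genome build, the annotation release or the strand setting, and the library kit was a stranded total RNA kit, per the labels' protocols. Per the file headers, the authors deposited 6 tables of their own comparisons with a mean normalized signal per gene, log2 fold changes with standard errors, a test score (the column stat) and p-values. In each of these 6 tables the column of p-values was identical to that of adjusted p-values in 100% of lines, so only the adjusted ones were read. Gene names came from the table of the first comparison.

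Members were taken by their deposited name, and the members and gene lists were chosen with earlier results of these data known. Counts of all 28032 genes in 15 libraries were fitted together (R 4.3.3, edgeR 4.0.16, quasi-likelihood F test, 6 contrasts) after TMM normalization and the filterByExpr filter by group, which left 20310 genes. Benjamini-Hochberg adjustment ran over all of them. The SE of a log2 fold change is its size divided by the square root of F. CPM values are TMM-scaled, and intervals and floors cover counting error only. The fit was tested on simulated data with known changes. Alternatives were DESeq2 1.42.0, limma 3.58.1 voom with sample weights, other scalings, filters and thresholds, 2-group fits, replicate blocks and each library left out in turn.

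Genes were named by rule. For each isolate against Control these were the 6 higher and 6 lower called members of largest log2 fold change, with a mean log2 CPM of at least 1 and no overlap between the groups, and for each pair of isolates 3 and 3. Added to them were the 4 highest and 4 lowest common to all isolates, up to 2 of smallest p per role list, and the reductases. Other members that the text names were chosen after their values were seen. Gene order came from the RefSeq table, in which all 143 members were found; no sequences were used here.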

Additional observations from a re-analysis of the deposited data

Results flagged for a closer look

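Single libraries stood apart from the other 3 of their group for 8 of 144 groups of 4 libraries examined over 48 named genes, by Dixon's criterion (critical value 0.829). Chance flags about 1 in 20 groups, so this number is close to what chance gives. They were MTS P5D6 replicate 2 at 1.68 CPM of CYP711A1 LOC117854968, MTS P5D6 replicate 4 at 6.41 CPM and control replicate 2 at 0.0544 CPM of CYP76M5 LOC117846461, AI2.2-A replicate 1 at 0.399 CPM and control replicate 2 at 4.40 CPM of CYP81Q32 LOC117849356, AI2.2-A replicate 2 at 278 CPM of the reductase LOC117848722, control replicate 1 at 4.99 CPM of CYP99A2 LOC117859811 and control replicate 1 at 6.61 CPM of CYP72A219 LOC117855439.

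For 6 genes 1 isolate gave a higher and another a lower level than Control, and the difference between the isolates was tested directly by edgeR. The genes were picked for calls on opposite sides of the same controls in the same fit. Their direct differences largely follow from that choice and add no separate evidence. Log2 differences of AI2.2-A over MTS P5D6 were 0.61 for CYP709B2 LOC117838776, 1.24 for CYP86B1 LOC117839372, -0.97 for CYP704C1 LOC117862487, 2.02 for CYP77A4 LOC117862709 and 2.05 for CYP724B1 LOC117865849. Those of CTB P6B8 over MTS P5D6 were 0.70 for LOC117838776, 1.42 for LOC117839372, 1.10 for CYP94C1 LOC117847308 and 1.76 for LOC117862709.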

How the results depend on the processing

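No called value changed its sign under any alternative, and counts of calls against Control stayed within 1.5 times of those reported at an adjusted p under 0.05, except where stated. With at least 2-fold added to the call there were, in all, higher and lower, 39, 28 and 11 P450 genes for AI2.2-A over Control, 35, 31 and 4 for CTB P6B8 over Control, 37, 27 and 10 for MTS P5D6 over Control, 9, 3 and 6 for AI2.2-A over CTB P6B8, 24, 14 and 10 for AI2.2-A over MTS P5D6, and 13, 9 and 4 for CTB P6B8 over MTS P5D6. At an adjusted p under 0.01 there were 6 lower for CTB P6B8 over Control, 2 (1 higher, 1 lower) for AI2.2-A over CTB P6B8 and 19 (12 and 7) for CTB P6B8 over MTS P5D6. A fit of only the 2 groups gave 8 (3 and 5) for AI2.2-A over CTB P6B8. Leaving out 1 library at a time gave 54 to 65 calls for AI2.2-A over Control, 50 to 65 for CTB P6B8 over Control with 7 to 12 lower, and 65 to 73 for MTS P5D6 over Control. It gave 4 to 20 for AI2.2-A over CTB P6B8 (1 to 6 higher, 3 to 15 lower), 47 to 55 for AI2.2-A over MTS P5D6, and 22 to 39 for CTB P6B8 over MTS P5D6 (14 to 25 higher, 7 to 16 lower). The causes were not tested. Over Control, 50 of 63 calls for AI2.2-A, 42 of 63 for CTB P6B8 and 58 of 71 for MTS P5D6 held in all 24 alternatives, against 2 of 18 for AI2.2-A over CTB P6B8, 36 of 53 for AI2.2-A over MTS P5D6 and 15 of 38 for CTB P6B8 over MTS P5D6.

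Replicate numbers did not pair the libraries: over 21 pairs with the same title number, deviations from the group means correlated at -0.153 to 0.142 across genes, with 1 pair over 0.1, and over 18 pairs by description number likewise. By either number, 2 of the 15 libraries correlated best with a library of their own number. With a replicate block by title number the calls numbered 62 for AI2.2-A over Control, 60 for CTB P6B8 over Control, 72 for MTS P5D6 over Control, 20 for AI2.2-A over CTB P6B8, 58 for AI2.2-A over MTS P5D6 and 33 for CTB P6B8 over MTS P5D6. A replicate block by description number gave 22 (14 higher, 8 lower) for CTB P6B8 over MTS P5D6.

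Counts by the authors' deposited tables, at their adjusted p under 0.05, were 44 higher and 21 lower P450 genes for AI2.2-A over Control, 47 and 11 for CTB P6B8 over Control, and 48 and 28 for MTS P5D6 over Control.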

Other observations

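P450 enzymes that the deposited annotation names by their reaction, without the words of the rule, stood outside the 143 genes. There were 69 of them, found by a list of reaction names, and 48 were tested. Beside AI2.2-A 25 rose (52.1%, against 23.4% of all tested genes) and 5 fell (10.4%, against 24.3%). Beside CTB P6B8 24 rose (50.0%, against 22.6%) and 4 fell (8.33%, against 22.7%), and beside MTS P5D6 22 rose (45.8%, against 23.9%) and 10 fell (20.8%, against 28.3%). Allene oxide synthase makes the first committed step of jasmonate synthesis, and both tested genes of that name rose with each isolate. LOC117839469 had 70.5, 72.7, 73.2 and 70.8 CPM beside AI2.2-A, 64.5, 82.6 and 57.3 CPM beside CTB P6B8 and 70.4, 35.8, 62.2 and 57.7 CPM beside MTS P5D6, against 24.6, 37.9, 31.0 and 27.9 CPM in control shoots. MTS P5D6 replicate 2 was the one isolate library inside the control range. Ent-kaurene oxidases act in gibberellin synthesis, and relatives in rice act on phytoalexin precursors. LOC117853040, named ent-kaurene oxidase 2-like, had 61.8, 73.6, 77.5 and 87.8 CPM beside AI2.2-A, 117, 68.5 and 78.3 CPM beside CTB P6B8 and 115, 41.3, 132 and 79.2 CPM beside MTS P5D6, against 11.3, 29.1, 27.5 and 27.6 CPM in control shoots. Control replicate 1 and MTS P5D6 replicate 2 were the lowest of their groups, as they were for the CYP99A2 genes. Its log2 fold changes were 1.65 ± 0.32 beside AI2.2-A, 1.87 ± 0.33 beside CTB P6B8 and 1.94 ± 0.32 beside MTS P5D6 (SE; largest edgeR adjusted p = 5.17e-04).

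Tryptamine 5-hydroxylase makes serotonin in rice, and its tested copies differed by isolate. LOC117847232 had 14.5, 23.3, 13.7 and 21.7 CPM beside AI2.2-A, 26.9, 48.4 and 31.0 CPM beside CTB P6B8 and 43.4, 41.4, 55.7 and 49.9 CPM beside MTS P5D6, against 9.65, 15.7, 12.8 and 11.5 CPM in control shoots. LOC117866171 had 11.3, 10.4, 7.60 and 5.52 CPM beside AI2.2-A, 7.12, 6.80 and 5.84 CPM beside CTB P6B8 and 2.41, 1.96, 3.71 and 4.32 CPM beside MTS P5D6, against 2.63, 2.94, 3.59 and 3.46 CPM in control shoots. Over control, LOC117847232 gave 1.94 ± 0.21 (SE; edgeR adjusted p = 2.03e-06) and LOC117866171 gave -0.03 ± 0.26 (SE; edgeR adjusted p = 0.935) beside MTS P5D6. Indole-2-monooxygenase, in maize an enzyme of benzoxazinoid defence compounds, had 10 tested genes of that name, of which 5 rose and 2 fell beside AI2.2-A, 5 rose and 1 fell beside CTB P6B8, and 7 rose and 2 fell beside MTS P5D6. Of all tested genes 23.4%, 22.6% and 23.9% rose and 24.3%, 22.7% and 28.3% fell beside these isolates in turn. These lists were counted and not tested as sets, and the genes given here were chosen after their values were seen.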
